A study of Mus musculus with 6 samples.

Results

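Lung tumors of RPM mice, which model small cell lung cancer, and normal lung were compared for 45 genes of synaptic vesicles and regulated exocytosis. The genes were chosen by symbol, from a list of vesicle proteins, calcium sensors, fusion proteins and their helpers, and all 45 were present among the 22477 gene rows of the count table. All 45 also passed the filter on low counts, which kept 18027 genes. By what is generally known, 10 were classed as broad (found in most cells, or in blood and epithelial secretory cells) and 8 as mixed. The other 27 made up the class called neuronal (found mainly in neurons and endocrine cells). These classes were set with earlier results of these data known, so counts by class are not an independent test.

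The data were RNA-seq counts from 4 tumors (tumor 3, 4, 5 and 6) and 2 samples of normal lung (normal 1 and 2), each from its own mouse and numbered as in the sample titles. All 6 mice carried the Rb1/Trp53/MycT58A genotype, in which floxed Rb1 and Trp53 alleles and a Myc T58A allele behind a stop cassette respond to Cre recombinase. The labels list Ad5CGRP-Cre for both groups, an adenovirus whose CGRP promoter aims Cre at pulmonary neuroendocrine cells. The study also had arms treated with entinostat and an antibody to PD-1, but the labels place none of these 6 samples in an arm, and the age at collection is not given in the sources used here, only an induction age of 8 weeks. Total counts ran from 54735438 in tumor 4 to 99122494 in normal 1. Among all counts, Rn45s, Rpph1 and Rmrp, which lack a poly(A) tail, made up 0.238% in normal 1, 0.55% in normal 2 and 5.46% to 13.9% in tumors. Leaving out a wider set of 1107 gene rows of tailless and histone RNAs is among the alternatives tried. Myc stood at 7.90 and 18.2 CPM (read counts scaled to the library's total) in normal 1 and 2 and at 70.2 to 175 CPM in the tumors. Rb1 stood at 72.0 and 83.5 CPM in normal lung and at 42.9 to 80.2 CPM in tumors, and Trp53 at 21.6 and 22.6 against 9.42 to 15.8 CPM. Counts over a whole gene do not show loss of the floxed exons, and they do not separate the Myc transgene from the native gene.

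Neurons and endocrine cells release transmitters and hormones when calcium enters the cell. A vesicle is brought to the membrane by Rab proteins and their effectors, made ready for fusion by priming factors such as the Munc13 proteins, and fused by a complex of SNARE proteins from the vesicle (VAMP) and the target membrane (syntaxin and SNAP-25 families), with synaptotagmins sensing calcium and complexins holding the complex ready. Other cells use related proteins of the same families for mucus, surfactant, cytotoxic granule and platelet release. Pulmonary neuroendocrine cells, the usual cell of origin of small cell lung cancer, store peptides and amines in dense-core granules, and synaptophysin staining is used to diagnose the human disease.

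The tumors had high levels of the neuronal release machinery and low levels of its broadly expressed relatives. Of the 27 neuronal genes 21 rose and 2 fell, 4 missed the threshold, and the median log2 fold change was 4.16 (edgeR quasi-likelihood test, Benjamini-Hochberg adjusted p under 0.05). Of the 10 broad genes none rose and 8 fell, 2 missed the threshold, and the median was -1.88. The 8 mixed genes divided into 4 that rose, 2 that fell and 2 that did not pass (median 1.53). Over all 45 genes 25 rose and 12 fell, or 55.6% and 26.7%, where 31.3% of all tested genes rose and 32.6% fell, with a median of 0.02. Summed over the 27 neuronal genes, the level was 119 and 129 CPM in normal 1 and 2 and 1284, 1096, 1595 and 1341 CPM in tumors 3 to 6, and summed over the 10 broad genes it was 937 and 883 against 339, 376, 288 and 281 CPM. Every tumor lay above both normal libraries for 26 of the 45, against 37.4% of all genes, and below both for 14, against 39.8%. Counts of whole tissue cannot tell fewer cells of a type from less RNA per cell. Without normal 1, 21 rose and 10 fell (18.0% and 22.9% of all genes), and without normal 2, 20 rose and 11 fell (20.0% and 23.3%). Each of these fits takes the spread of the remaining normal sample from the tumors.

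**Figure D1:**
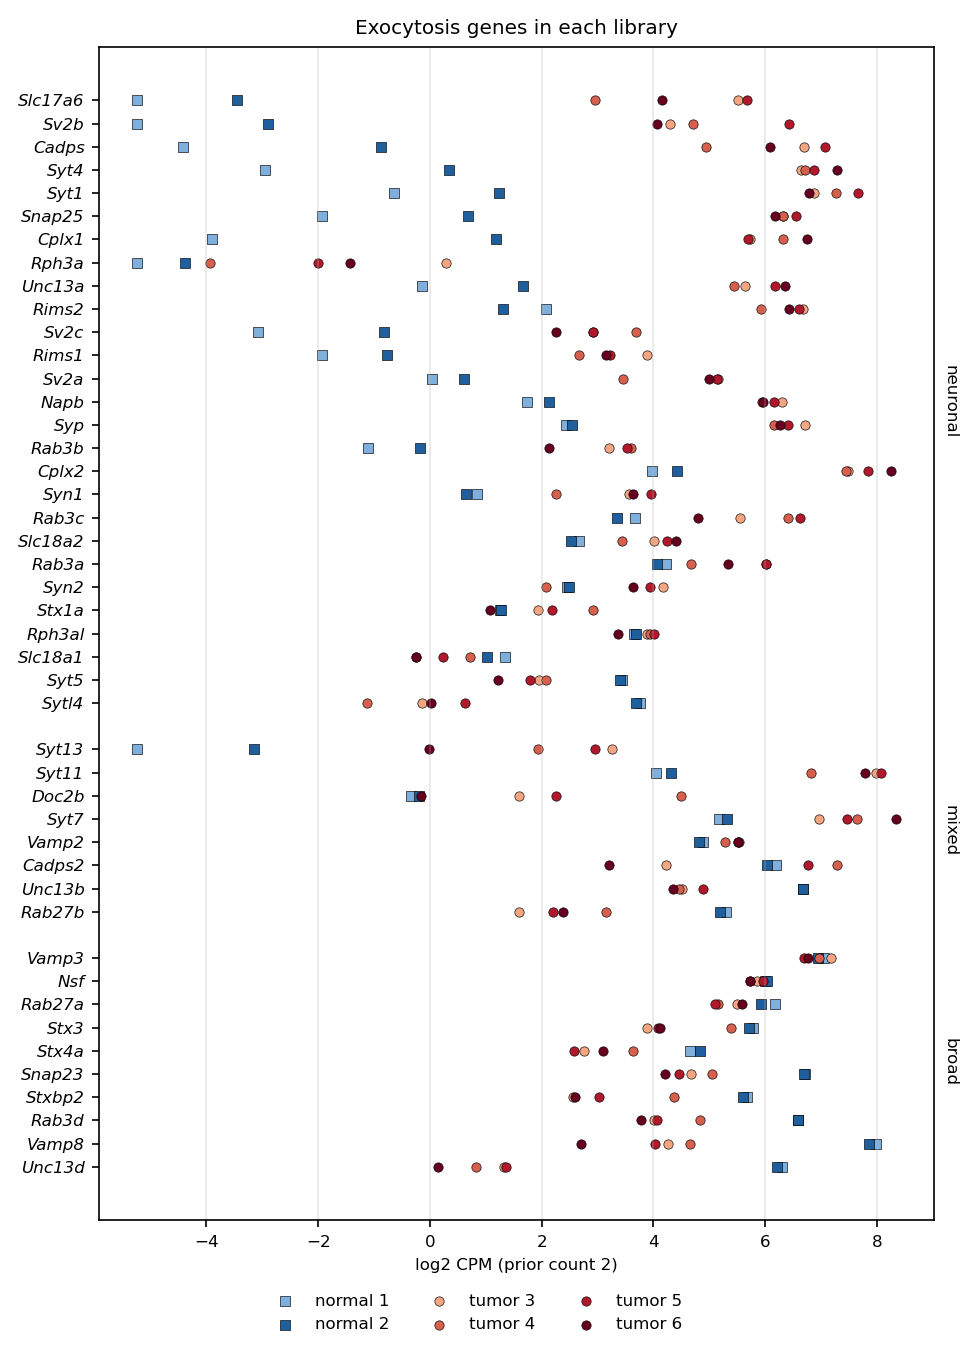
Level of each gene in each library, as log2 CPM with a prior count of 2 on the horizontal axis, with squares for the 2 normal libraries and circles for the 4 tumors, and genes ordered by fold change within the neuronal, mixed and broad classes. Most neuronal genes have every tumor to the right of both normal libraries, and 9 of the 10 broad genes have every tumor to the left.

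**Figure D2:**
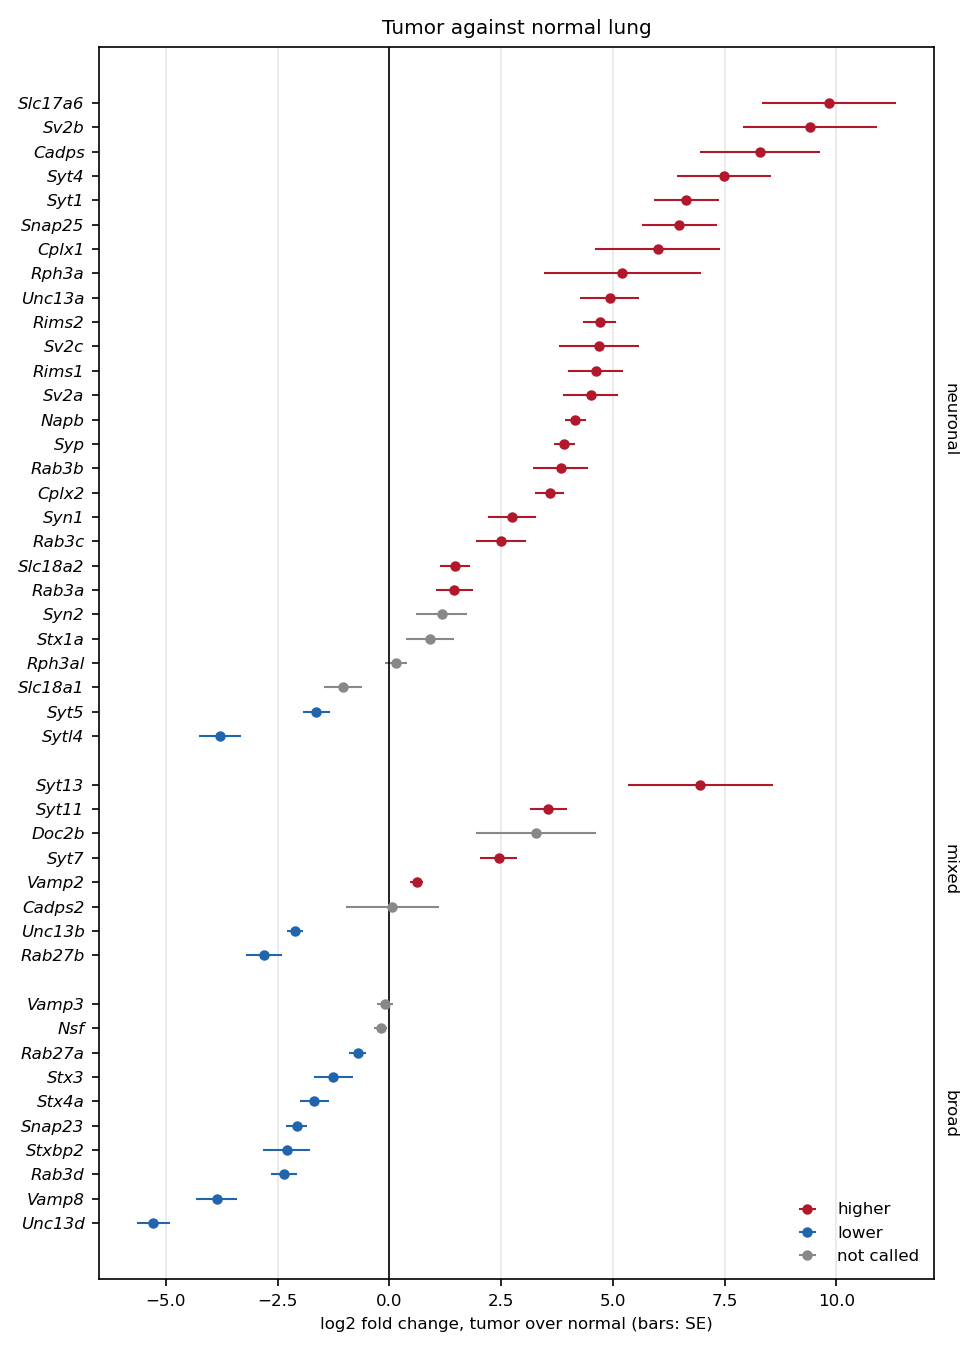
Log2 fold change of each gene, tumor over normal lung, with bars for the standard error and colors for genes that were higher, lower or not called at an adjusted p under 0.05. Of the 45 genes 25 were higher and 12 lower, and the fold changes run from 9.84 for Slc17a6 to -5.28 for Unc13d.

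Markers of whole cell types moved in the same comparison. The 10 neuroendocrine markers (among them Chga, Scg2, Insm1 and Calca) summed to 20.5 and 31.0 CPM in normal 1 and 2 and to 1173 to 1710 CPM in tumors, and all 10 rose, with 1 of them at 0 in normal 1. Markers of alveolar type 2 cells summed to 23547 and 21353 CPM in normal lung and to 57.2 to 723 CPM in tumors (7 of 7 fell), and those of club cells to 34240 and 31246 against 69.6 to 429 CPM (4 of 5 fell). Hematopoietic markers summed to 5423 and 5063 CPM against 268 to 1144 CPM (7 of 10 fell). Most of this sum was Lyz2, at 4954 and 4555 CPM against 176 to 1034 CPM. The other 9 summed to 469 and 509 CPM against 79 to 110 CPM. Platelet markers summed to 48.8 and 55.7 against 4.83 to 11.7 CPM (3 of 5 fell). Endothelial markers summed to 3352 and 3037 CPM against 50.4 to 81.0 CPM (6 of 6 fell). None of these 5 lists of normal lung cell types had a marker at 0 in any tumor. Of the mast cell markers, Kit, which other cells express too, stood at 239 and 220 CPM in normal lung and 62.3 to 96.5 CPM in tumors and was the 1 of 6 that fell. The other 5 summed to 1.91 and 3.37 CPM against 3.07, 0.157, 0.287 and 0.823 CPM in tumors 3 to 6, with 3 at 0 in tumor 4 and 1 in tumor 5. Of the 8 markers of Schwann cells and peripheral neurons, Prx, which lung endothelium also expresses, stood at 321 and 295 CPM in normal lung and 1.39 to 3.22 CPM in tumors. The other 7 summed to 3.84 and 6.11 CPM in normal lung and to 10.4, 3.51, 13.8 and 10.2 CPM in tumors, so the groups overlapped. Of the 6 tested Prx fell and Prph rose, and 3 of the 8 were at 0 in normal 1, none in normal 2 and 1 to 2 in each tumor. Skeletal muscle markers summed to 779 CPM in tumor 6 and 4.12 to 14 CPM elsewhere. The part of these cell types in the results below was not tested.

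Among the proteins of the vesicle membrane, synaptophysin and the SV2 family were far higher in the tumors. Syp, the gene of synaptophysin, stood at 5.38 and 5.80 CPM in normal 1 and 2 and at 104, 71.3, 84.2 and 76.7 CPM in tumors 3 to 6. The log2 fold change was 3.91 ± 0.23 (SE), with an adjusted p = 4.94e-05 (log2 fold changes below are given in the same way). The lowest tumor was thus 12.3-fold above the higher normal library. In the GRCm38 annotation of GENCODE 16.8% of its exon bases overlap an antisense RNA, Gm14703, and no source used here states whether the counting used strand. The SV2 genes encode transporter-like glycoproteins of synaptic and secretory vesicles. Sv2a rose from 0.996 and 1.5 CPM to 35.4, 11.01, 35.2 and 31.8 CPM (4.51 ± 0.62, adjusted p = 0.000973), with tumor 4 the low one. Sv2c rose to 4.73 to 12.9 CPM from 0.0914 and 0.539 CPM (4.69 ± 0.89), or by 3.90 without normal 1 and 6.44 without normal 2. Sv2b had no count in normal 1, 10 counts (0.108 CPM) in normal 2, and 19.7, 26.1, 85.8 and 16.7 CPM in the tumors. Its fitted log2 fold change was 9.41 ± 1.503 (adjusted p = 0.00185), 8.39 without normal 1 and 8.58 without tumor 5, its highest tumor, and 10.31 with limma voom. Without normal 2 the normal count is 0, and the tumors are at least 1299-fold higher. That bound sets the normal group at 3 counts in all, and it covers counting error only.

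Of the synapsin genes Syn1 and Syn2, whose products tether vesicles to the cytoskeleton in nerve endings, only Syn1 passed as higher. It rose by less than Syp or the SV2 genes. Syn1 stood at 1.77 and 1.53 CPM in normal lung and 11.9, 4.77, 15.6 and 12.3 CPM in tumors 3 to 6 (2.75 ± 0.54, adjusted p = 0.00425). Syn2 stood at 5.46 and 5.59 CPM against 18.0, 4.202, 15.2 and 12.3 CPM, so tumor 4 lay below both normal libraries while the others lay above. Its log2 fold change of 1.17 ± 0.56 did not pass (adjusted p = 0.110), though it did with DESeq2 (adjusted p = 0.0443) and without tumor 4 (1.46, adjusted p = 0.00378).

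Syn1 is a textbook target of REST, a repressor that keeps neuronal genes silent in other cells by binding a long element called RE1. Promoter windows from RefSeq on GRCm38.p6, each 250 bases before to 50 after a start site, matched 33 of the 45 genes (43 windows). A core of RE1, TTCAGCACC and GGACAG separated by NN, was searched on both strands with at least 13 of its 15 fixed bases matched. It was found in 47 of all 32851 windows (0.143%) and in 2 of the 31 windows of neuronal genes, those of Syn1 (14 of 15) and Rph3a (13 of 15), and in none of the 3 mixed and 9 broad windows. The stretches before these start sites are shown because they are the only windows of the set that hold the element. Both genes lie on the minus strand, at chrX:20921051-20921168 for the Syn1 stretch and chr5:121009539-121009690 for that of Rph3a. Capitals mark the RE1 match, read on the opposite strand in Rph3a, and in Syn1 also the letters TGACGTCA, a cyclic AMP response element. Those letters were in 2 of the 31 neuronal windows (6.45%), of Syn1 and Slc18a2, in no mixed or broad window, and in 1.79% of all windows.
Syn1: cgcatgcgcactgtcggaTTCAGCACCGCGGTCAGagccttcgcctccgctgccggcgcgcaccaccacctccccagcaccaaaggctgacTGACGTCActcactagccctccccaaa
Rph3a: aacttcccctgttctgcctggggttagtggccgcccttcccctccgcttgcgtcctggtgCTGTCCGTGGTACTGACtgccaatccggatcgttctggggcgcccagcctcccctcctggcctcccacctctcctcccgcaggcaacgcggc
A match describes these letters only and does not show that a factor binds there. Of the E-box letters, CAGCTG was present in 10 of the 31 neuronal windows (32.3%) against 16.3% of all windows and 2 of the 9 broad windows. CAGATG was in 4 neuronal windows (12.9%) and 1 broad window (11.1%) against 17.2% of all. CACGTG was in 1 neuronal window (3.23%), 2 of the 3 mixed windows, 3 broad windows (33.3%) and 7.15% of all. CACGTG contains the letters CG, whose median number per window was 11 in neuronal, 20 in mixed and 22 in broad windows against 7 in all. These shares come from few windows and were not adjusted for base composition. Rest itself stood at 54.2 and 53.04 CPM in normal lung and 4.10, 2.61, 2.84 and 2.60 CPM in tumors 3 to 6, a change of -4.14 ± 0.25 (adjusted p = 4.94e-05). Of its cofactors, Rcor2 rose from 0.579 and 1.91 CPM to 43.8 to 69.6 CPM (5.54 ± 0.59, or 4.91 without normal 1 and 6.62 without normal 2), while Rcor1, Rcor3 and Sin3a did not pass, except Sin3a with upper quartile factors (adjusted p = 0.0468).

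Of the 7 synaptotagmin and Doc2 genes, which include calcium sensors and relatives that do not sense it, 5 rose, 1 fell and 1 did not pass. These shares, 71.4% and 14.3% of a small group, compare with 31.3% and 32.6% of all tested genes. Syt1, the fast calcium sensor of synapses, went from 0.610 and 2.32 CPM to 118, 154, 204 and 110.4 CPM in tumors 3 to 6 (6.64 ± 0.72, adjusted p = 0.000386), a change of 5.97 without normal 1 and 7.89 without normal 2. Syt4, a synaptotagmin of dense-core vesicles that lacks calcium binding in its first C2 domain, went from 0.102 and 1.24 CPM to 100.5, 105, 118 and 156 CPM (7.48 ± 1.05, adjusted p = 0.00108), with 6.58 without normal 1, 10.16 without normal 2 and 8.37 with limma voom. Both groups were widely separated for these genes, and the lowest tumor was 47.6-fold and 81.0-fold above the higher normal library. Syt7, the slow high-affinity sensor of neuroendocrine granules and lysosomes, was already present in normal lung at 36.2 and 39.9 CPM and rose to 126, 199.5, 177 and 327 CPM (2.44 ± 0.41, adjusted p = 0.00223). Syt11, which does not bind calcium, rose from 16.5 and 19.9 CPM to 252, 113, 271 and 222 CPM (3.55 ± 0.42, adjusted p = 0.000521). Per kilobase of exon, the tumor means were 41.2 CPM for Syt11, 30.8 for Syt4, 27.7 for Syt7 and 17.6 for Syt1, and Syt7 averaged 5.09 CPM per kilobase in normal lung. In GRCm38, RNAs on the other strand overlap 14.5% of the exon bases of Syt4 (Gm26658), 5.13% of those of Syt7 (Gm26859) and 5.53% of those of Doc2b (Gm12339).

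Syt13, a calcium-independent synaptotagmin known from endocrine cells, had 0 and 8 counts in normal 1 and 2 and 9.51, 3.81, 7.68 and 0.957 CPM in the tumors. Its change of 6.96 ± 1.62 (adjusted p = 0.00896) was 5.95 without normal 1 and 7.60 with limma voom, and without normal 2 the tumors were at least 186-fold above the floor. Syt5, a further calcium sensor of dense-core vesicles, went the other way. It fell from 10.8 and 10.5 CPM to 3.85, 4.18, 3.44 and 2.30 CPM (-1.63 ± 0.31, adjusted p = 0.00395), with every tumor below both normal libraries. Doc2b, a soluble calcium sensor related to the synaptotagmins, reached 22.5 CPM in tumor 4 but 3.01, 4.77 and 0.868 CPM in tumors 3, 5 and 6, against 0.762 and 0.842 CPM in normal lung. The difference of 3.28 ± 1.35 did not pass (adjusted p = 0.0699), but did with DESeq2 (adjusted p = 0.00222) and without tumor 6 (3.72, adjusted p = 0.0216).

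Of the 8 SNARE genes, 2 rose and 4 fell (25% and 50%, against 31.3% and 32.6% of all genes), and 2 missed the threshold. The neuronal and ubiquitous SNAP-25 genes moved in opposite directions. Snap25, the membrane SNARE of neurons, stood at 0.234 and 1.59 CPM in normal lung and at 80.0, 79.9, 93.5 and 72.5 CPM in tumors (6.49 ± 0.83, adjusted p = 0.000743), with 5.67 without normal 1 and 8.42 without normal 2. Its ubiquitous relative Snap23 stood at 105 and 103 CPM in normal lung and 25.5, 33.0, 21.8 and 18.4 CPM in tumors, a fall of 2.08 (SE 0.23, adjusted p = 0.000437). Per kilobase of exon, Snap25 made up 0.141% and 0.963% of the sum of both genes in normal 1 and 2 and 66.4%, 60.5%, 73.0% and 71.3% in tumors 3 to 6. Snap23 was thus the more abundant of the pair in both normal libraries, and Snap25 in every tumor.

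Of the vesicle SNAREs, Vamp8, which serves mast cell, platelet and exocrine release, fell from 255 and 232 CPM to 19.2, 25.1, 16.2 and 6.51 CPM (-3.86 ± 0.46, adjusted p = 0.000559). It was the most abundant of the 45 per kilobase in normal lung, at 105 CPM per kilobase, and averaged 7.25 in tumors. Vamp2, synaptobrevin 2, rose modestly from 29.4 and 28.3 CPM to 46.0, 38.9, 45.8 and 45.5 CPM (0.61 ± 0.15, adjusted p = 0.0115), and missed the threshold without normal 1 (0.63, adjusted p = 0.0910) or normal 2 (0.57, adjusted p = 0.111). Vamp3, cellubrevin, a SNARE of recycling endosomes, overlapped between the groups, at 133 and 123.4 CPM against 145, 125, 103 and 109 CPM (-0.09 ± 0.18, adjusted p = 0.671). In tumors Vamp3 remained above Vamp2 per kilobase, at a mean of 41.7 against 11.6 CPM per kilobase.

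The syntaxins did not follow the same course. Stx1a, the neuronal syntaxin, was low throughout, at 2.37 and 2.40 CPM in normal lung and 3.8, 7.54, 4.51 and 2.09 CPM in tumors, where tumor 6 lay below both normal libraries (0.91 ± 0.53, adjusted p = 0.174). Without tumor 6 it passed, at 1.23 (adjusted p = 0.0389). The broad syntaxin gene Stx4a fell from 25.3 and 28.5 CPM to 6.71, 12.4, 5.90 and 8.54 CPM (-1.68 ± 0.32, adjusted p = 0.00411). Stx3, of apical and ribbon-synapse release, stood at 55.5 and 52.4 CPM against 14.8, 41.6, 17.01 and 17.2 CPM. Its fall of 1.25 (SE 0.43, adjusted p = 0.0389) lost its call without normal 1 (adjusted p = 0.142), normal 2 (0.115), tumor 3 (0.0809), tumor 5 (0.0882) or tumor 6 (0.0856), and with upper quartile factors (0.0504).

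Of the 5 genes that regulate or recycle SNARE complexes, 3 rose, 1 fell and 1 did not pass. The shares were 60% and 20%, where 31.3% and 32.6% of all tested genes rose and fell. Cplx1 and Cplx2 encode complexins, which clamp assembled SNAREs until calcium arrives. Cplx1 had 4 counts in normal 1 (0.0406 CPM) and 207 in normal 2 (2.23 CPM), and 52.9, 80.1, 51.6 and 108 CPM in the tumors (6.01 ± 1.40, adjusted p = 0.00891). Its change was 5.02 without normal 1, 10.74 without normal 2 and 7.80 with limma voom, so its size rests on which normal library is used. Cplx2, at 15.7 and 21.4 CPM in normal lung, reached 179.9, 175, 228 and 304 CPM (3.58 ± 0.33, adjusted p = 0.000215) and was the most abundant of the 45 per kilobase in tumors, at 45 CPM per kilobase. Napb, the brain form of the SNAP adaptor that recruits the NSF ATPase, rose from 3.30 and 4.37 CPM to 78.5, 61.5, 70.8 and 62.6 CPM (4.16 ± 0.23, adjusted p = 4.35e-05). Nsf itself, which pulls used SNARE complexes apart in all cells, did not pass, at 64.2 and 65.1 CPM against 57.9, 53.03, 62.5 and 52.8 CPM (-0.19 ± 0.14, adjusted p = 0.259). Stxbp2, the Munc18 form of blood and epithelial cells, fell from 50.7 and 48.7 CPM to 5.86, 20.6, 8.13 and 6.01 CPM (-2.29 ± 0.52, adjusted p = 0.00829, or -2.89 without tumor 4).

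Of the 7 priming and active zone genes, 4 rose, 2 fell and 1 did not pass, with the Munc13 family split. The shares, 57.1% and 28.6%, compare with 31.3% and 32.6% of all tested genes. Unc13a, the Munc13 of most central synapses, went from 0.884 and 3.16 CPM to 49.7, 43.5, 71.9 and 81.8 CPM (4.93 ± 0.66, adjusted p = 0.000853), with 4.27 without normal 1 and 6.11 without normal 2, and 3.92% of its exon bases overlap Colgalt1 on the other strand in GRCm38. Unc13d, the Munc13 of cytotoxic lymphocytes, mast cells and platelets, fell from 79.0 and 74.1 CPM to 2.49, 1.75, 2.57 and 1.08 CPM (-5.28 ± 0.36, adjusted p = 7.49e-05), the largest fall among the 45. Unc13b, found in both brain and epithelia, fell as well, from 102 CPM in each normal library to 22.9, 21.9, 29.7 and 20.4 CPM (-2.11 ± 0.18, adjusted p = 0.000156).

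Cadps and Cadps2 encode CAPS proteins, which prime dense-core vesicles. Cadps had 2 counts in normal 1 and 48 in normal 2 (0.518 CPM) and stood at 104, 30.8, 134 and 67.9 CPM in tumors, with a log2 fold change of 8.29 ± 1.34 (adjusted p = 0.00192), 7.33 without normal 1 and 9.37 with limma voom. Without normal 2 the ratio of tumor to normal counts, scaled to library size, was 4398 (95% exact interval 1217 to 36320, counting error only). Cadps2 showed no common direction. It stood at 73.4 and 65.7 CPM in normal lung, at 155 and 108 CPM in tumors 4 and 5, and at 18.7 and 9.17 CPM in tumors 3 and 6 (0.07 ± 1.04, adjusted p = 0.958). The active zone genes Rims1 and Rims2, whose products link Rab3 vesicles to calcium channels, rose to 6.28 to 14.7 CPM from 0.234 and 0.561 CPM (4.62 ± 0.61, or 5.36 without normal 2) and to 60.5 to 102 CPM from 4.17 and 2.46 CPM (4.70 ± 0.38).

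Within the Rab3 family, the genes known from neurons rose and the exocrine form fell. Rab3a, the main Rab of synaptic vesicles, rose from 18.7 and 16.7 CPM to 64.2, 25.5, 64.3 and 40.2 CPM (1.46 ± 0.41, adjusted p = 0.0188), but missed the threshold without normal 1 (1.53, adjusted p = 0.0894) or normal 2 (1.36, adjusted p = 0.111). Rab3b rose from 0.437 and 0.863 CPM to 4.38 to 12.1 CPM (3.83 ± 0.61, adjusted p = 0.0018), and 9% of its exon bases overlap the antisense gene 8030443G20Rik. Rab3c rose from 12.7 and 10.1 CPM to 46.9, 84.2, 99.2 and 27.8 CPM (2.50 ± 0.56, adjusted p = 0.00751), though not without normal 2 (2.33, adjusted p = 0.0594). Rab3d, the Rab3 of exocrine glands and mast cells, fell from 96.5 and 95.3 CPM to 16.1, 28.5, 16.8 and 13.6 CPM (-2.36 ± 0.29, adjusted p = 0.00065). Per kilobase, Rab3d stood above Rab3a in both normal libraries and below it in every tumor.

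Rab27a and Rab27b, which dock lysosome-related and secretory granules, were both lower. Rab27a fell from 72.5 and 60.4 CPM to 45.3, 35.4, 34.2 and 47.8 CPM (-0.71 ± 0.19, adjusted p = 0.0171, or -0.58 with adjusted p = 0.144 without normal 1), and Rab27b from 39.4 and 36.6 CPM to 3.00, 8.87, 4.61 and 5.18 CPM (-2.81 ± 0.40, adjusted p = 0.00114). Sytl4, the gene of granuphilin, a Rab27 effector of insulin granules, was classed as neuronal and fell from 13.5 and 12.8 CPM to 0.879, 0.432, 1.51 and 0.987 CPM (-3.78 ± 0.47, adjusted p = 0.000662). Rph3al, or Noc2, an effector in endocrine cells, overlapped between the groups at 12.6 and 12.9 CPM against 14.7, 15.2, 16.1 and 10.3 CPM (0.14 ± 0.25, adjusted p = 0.632). Rph3a, rabphilin, was barely detected, with 2 counts over both normal libraries and 122 over the tumors, 1.19 CPM in tumor 3 and 0.0393 in tumor 4. The ratio was 44.6 (95% exact interval 12.1 to 372, counting error only). The adjusted p of 0.0361 became 0.171 without normal 1, 0.0751 without normal 2, 0.0515 without tumor 3 and 0.0501 with limma voom. The ratio was 21.6 (5.85 to 180) without normal 1 and at least 15.3 against the floor without normal 2, and the fitted change fell from 5.21 to 4.08 without tumor 3 and to 4.55 with limma voom.

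Of the 3 transporters that fill vesicles, 2 rose and 1 did not pass, where 31.3% of all tested genes rose and 32.6% fell. Slc17a6, the vesicular glutamate transporter VGLUT2, had 0 and 6 counts in normal 1 and 2 and 45.5, 7.78, 51.3 and 17.8 CPM in tumors 3 to 6. Its change of 9.84 ± 1.5002 (adjusted p = 0.0015) and that of Sv2b (9.41) were the highest fitted values of the 45, and their order rests on 6 and 10 normal counts. The change of Slc17a6 was 8.83 without normal 1 and at least 1076-fold against the floor without normal 2. Slc18a2, the monoamine transporter VMAT2, rose from 6.35 and 5.75 CPM to 16.1, 10.8, 18.8 and 21.3 CPM (1.47 ± 0.33, adjusted p = 0.00774), and missed the threshold without normal 1 (1.53, adjusted p = 0.0541) or normal 2 (1.38, adjusted p = 0.0662). Slc18a1, the VMAT1 of chromaffin and enterochromaffin cells, was at 2.51 and 2.00 CPM in normal lung and 0.820, 1.61, 1.15 and 0.823 CPM in tumors. Every tumor was below both normal libraries, but the difference of -1.04 ± 0.42 did not pass (adjusted p = 0.0689), except with DESeq2 (adjusted p = 0.0498), limma voom (0.0343) or without tumor 4 (-1.27, adjusted p = 0.0241).

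The exchange of isoforms was measured within each library as a log2 ratio of CPM, with a prior count of 2. Each ratio set a gene taken as neuronal over a relative taken as broad. Vamp2 was taken as neuronal and Unc13b as broad, though both were classed as mixed, and Napa is not among the 45 genes. Library scaling cancels in the ratio, and gene length cancels in the difference between groups. Of the 10 pairs tested, 9 are reported, and in all 9 the ratio was higher in every tumor than in both normal libraries. Such separation was common among single genes, with every tumor above both normal libraries for 37.4% and below both for 39.8%. The share among other gene pairs is not known. Unc13a, Stx1a and Vamp2 each served in more than 1 pair, and the pairs were chosen with earlier results known, so this count is not an independent test. The mean ratio of Unc13a to Unc13d moved from -5.49 ± 1.34 (SD, n = 2) to 4.98 ± 0.85 (SD, n = 4), a shift of 10.47, and that of Snap25 to Snap23 from -7.33 ± 1.88 to 1.75 ± 0.37, a shift of 9.08. Smaller shifts were 7.26 for Unc13a over Unc13b, 4.62 for Vamp2 over Vamp8, 3.87 for Napb over Napa, 3.77 for Rab3a over Rab3d, 2.50 for Stx1a over Stx4a, 2.15 for Stx1a over Stx3 and 0.71 for Vamp2 over Vamp3. An exact two-sided permutation test over 4 tumors and 2 normal libraries gave p = 0.133 for each of the 9, also after adjustment over the 10 tested, which is the smallest value this design allows. The Snap25 shift was 7.75 without normal 1 and 10.41 without normal 2, the Unc13a over Unc13d shift 9.52 and 11.42, and the Unc13a over Unc13b shift 6.35 and 8.16.

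Pairs differed in how far the neuronal form came to dominate. Per kilobase, Unc13a was 88.1% to 96.6% of the sum with Unc13d in tumors, against 0.413% and 1.56% in normal 1 and 2. Rab3a was 62.8% to 88.3% of the sum with Rab3d, from 26.8% and 24.8%. Stx1a was the minority form throughout, at 20.7% to 36.2% of the sum with Stx3 in tumors and 8.38% and 8.92% in normal lung, and Napb reached 22.4% to 29.4% of the sum with Napa from 2.15% and 2.68%. Lengths are exon unions in GENCODE on GRCm38, which is not the build of the counts, so these shares are approximate.

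**Figure D3:**
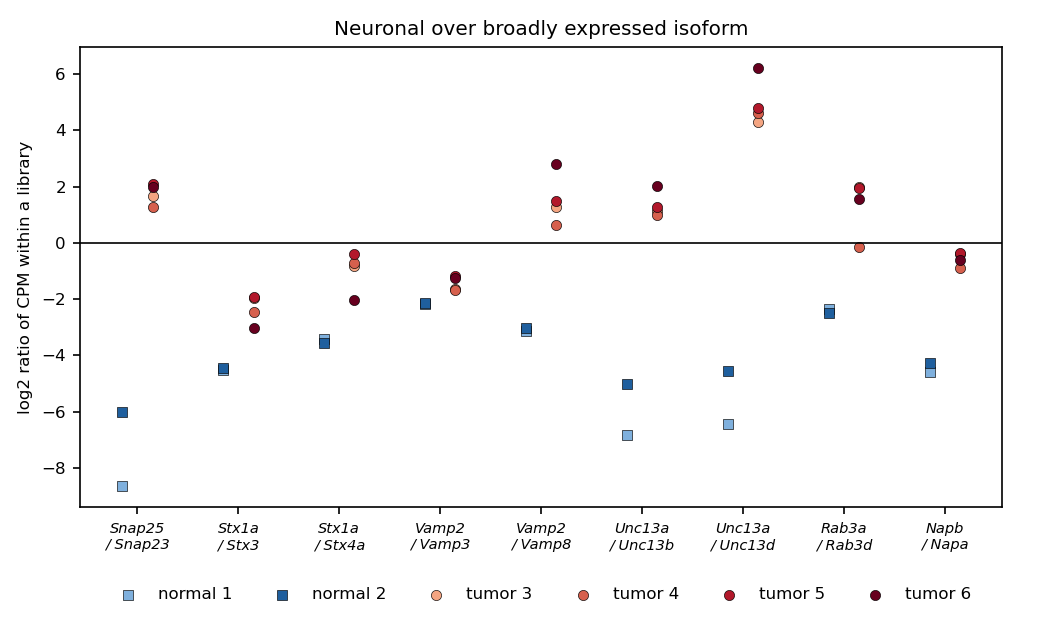
Log2 ratio of CPM in each library between the gene taken as neuronal and the gene taken as broad, for 9 pairs. Vamp2 and Unc13b are classed as mixed, and Napa is not among the 45 genes. Squares mark normal lung and circles tumors, and 0 marks equal CPM, not corrected for length. In every pair the 4 tumors lie above both normal libraries, by a mean of 10.47 for Unc13a over Unc13d and 0.71 for Vamp2 over Vamp3.

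The normal libraries themselves differed in the neuronal genes. Of the 25 neuronal genes with at least 10 normal counts, 9 were over 2-fold higher in normal 2 and none in normal 1, with a median log2 difference of 0.40. Over all tested genes with that many counts, 945 of 17357 were over 2-fold higher in normal 2 and 128 in normal 1, with a median of 0.03. No mixed or broad gene with 10 counts differed by 2-fold. The ratio of normal 2 to normal 1 was 55.0 for Cplx1, 25.5 for Cadps, 12.2 for Syt4, 6.79 for Snap25, 5.90 for Sv2c, 3.81 for Syt1, 3.58 for Unc13a and 2.40 for Rims1, and Sv2b was detected in normal 2 alone. The neuroendocrine markers summed 1.51-fold higher in normal 2, and Myc was also higher there. Uchl1, the most abundant of these markers, stood at 9.49 and 8.99 CPM in normal 1 and 2. The other 9 summed to 11 and 22 CPM. The source of this signal was not tested. Against normal 2 alone the lowest tumor remained 23.1-fold higher for Cplx1, 59.4-fold for Cadps, 81.0-fold for Syt4 and 45.7-fold for Snap25.

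**Figure D4:**
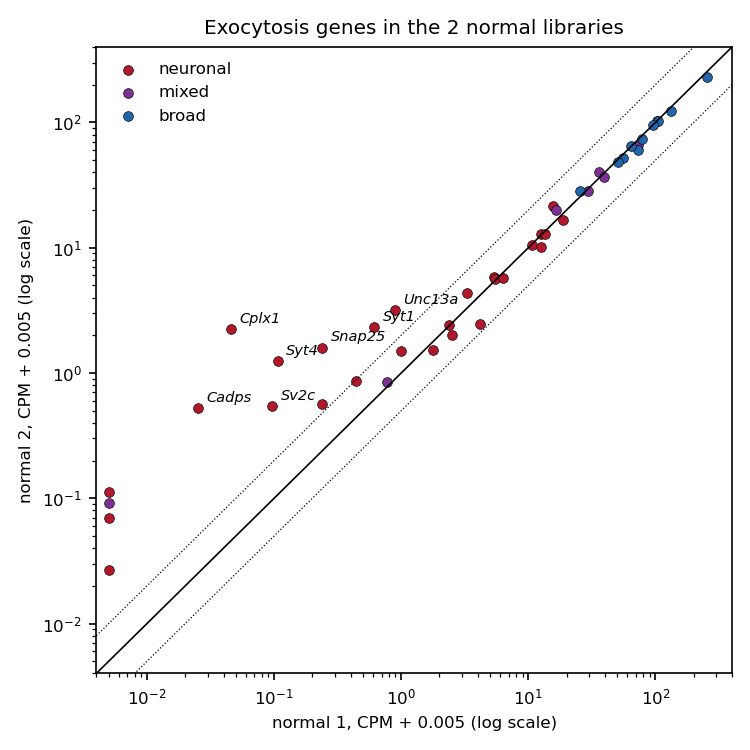
Level of the 45 genes in normal 1 (horizontal) and normal 2 (vertical), in CPM on log axes with 0.005 CPM added, where the solid line marks equal levels and the dotted lines 2-fold differences. Of the 25 neuronal genes with at least 10 counts, 9 lie above the upper dotted line, up to a ratio of 55.0 for Cplx1, and the others, like the mixed and broad genes with that many counts, lie between the dotted lines.

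The tumors differed from one another most in a few genes. Among neuronal genes the highest tumor was a median of 2.34-fold above the lowest, among mixed genes 2.78-fold and among broad genes 2.10-fold, against 1.79-fold over all tested genes. Snap25, Napb and Syp were steady, at 1.29-fold, 1.28-fold and 1.46-fold. At the other end stood Rph3a at 30.4-fold, Doc2b at 25.98-fold, Cadps2 at 16.9-fold, Syt13 at 9.93-fold, Slc17a6 at 6.60-fold and Sv2b at 5.13-fold. Tumor 4 had the lowest level of 15 of the 27 neuronal genes, including Sv2a, Syn1, Syn2, Cadps and Slc17a6, or 55.6%, where it was lowest for 30.1% of all tested genes. It had the highest level of 6 of the 10 broad genes, where it was highest for 28.6% of all tested genes. Tumors carry no subgroup in the labels, so these are values of single animals without a test.

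**Figure D5:**
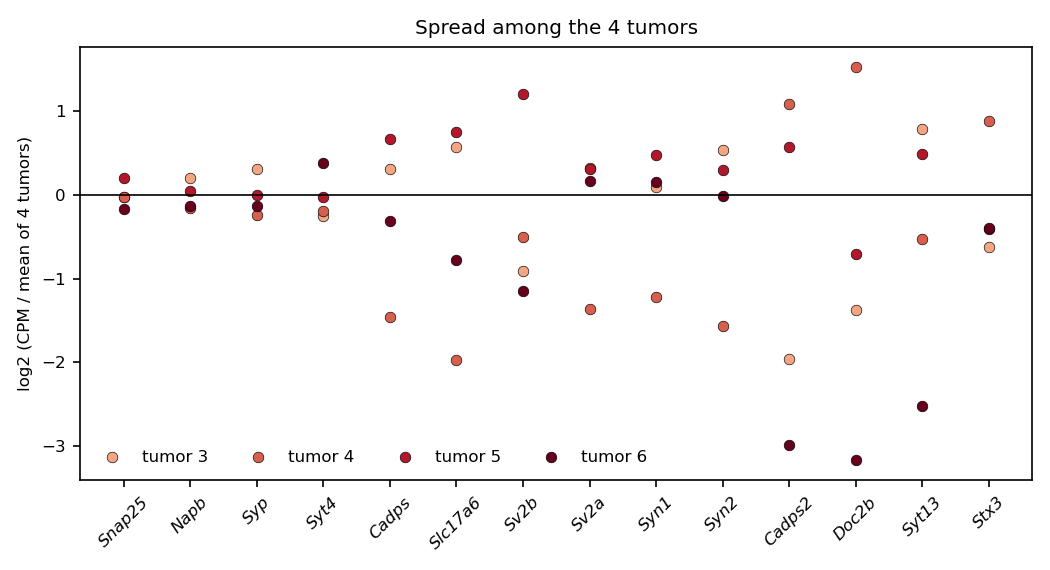
Level of 14 genes in each tumor as the log2 ratio to the mean CPM of the 4 tumors, with 1 circle per tumor. Snap25, Napb, Syp and Syt4 stay close to 0, tumor 4 is lowest for Cadps, Slc17a6, Sv2a, Syn1 and Syn2, and tumor 6 is lowest for Cadps2, Doc2b and Syt13.

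Other genes of the release machinery, vesicle membrane and vesicle recycling were read from lists of 57, 24 and 26 genes present in the table. Of the 56 tested release genes 20 rose, 15 fell and 21 did not pass (median 0.31). The shares, 35.7% and 26.8%, were near the 31.3% and 32.6% of all tested genes. Those with the smallest p were Syt14 (31.6-fold higher), Pclo, the active zone scaffold Piccolo (5.34-fold), Doc2a (4.52-fold) and Rims4, a small RIM, and, among those lower, the Rab27 effectors Sytl2 and Mlph (23.9-fold and 23.8-fold), the cytotoxic granule syntaxin Stx11 (18.7-fold) and Vamp5 (9.93-fold). Rims4 was counted 3 times in the normal libraries and 608 times in the tumors, for a scaled ratio of 148 (95% exact interval 50.4 to 720, counting error only), or 108 without normal 1 and 229 without normal 2. Napa did not pass (adjusted p = 0.127), except with upper quartile factors (0.0468).

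Of 21 tested vesicle membrane genes 8 rose and 7 fell (median 1.30). These shares, 38.1% and 33.3%, were also near those of all genes. Ptprn and Ptprn2, membrane proteins of dense-core granules, were 14.5-fold and 15.7-fold higher, Scamp5 12.8-fold and Syngr1 7.37-fold. Sypl, the widely expressed relative of synaptophysin, was 6.37-fold lower, Scamp2 3.35-fold, the ATP transporter gene Slc17a9 5.11-fold and Cyb561, of granule membranes, 4.06-fold. Within the SCAMP family, Scamp5 and Scamp2 thus moved in opposite directions.

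Of 26 vesicle endocytosis genes tested, 6 rose and 10 fell (median -0.25), or 23.1% and 38.5% where 31.3% and 32.6% of all genes did, and 7 in all passed without normal 1 and 7 without normal 2. Dnajc6, the neuronal auxilin, rose 11.6-fold, the endophilins Sh3gl3 and Sh3gl2 7.11-fold and 5.42-fold, and the neuronal syndapin Pacsin1 5.79-fold (log2 3.34 without normal 2, from 2.53). The widely expressed Pacsin2 fell 5.50-fold, dynamin 2 (Dnm2) 2.95-fold, Itsn2 2.87-fold and the clathrin heavy chain Cltc 1.54-fold, the last not past the threshold without either normal library. Of 9 genes of the exocyst, the tether of constitutive secretion, Exoc5 rose by 0.69. Exoc6b, Exoc3 and Exoc8 fell by 1.84, 0.94 and 0.65, while 5 did not pass (median -0.24). The shares were 11.1% and 33.3%, against 31.3% and 32.6% of all genes, so the share that fell was near that of all genes. Exoc5 and Exoc8 missed the threshold without normal 1 or normal 2, which left 2 exocyst genes called.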

How the data were processed

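The RNA was polyadenylated RNA from 4 tumors and 2 normal lungs, each column of the table carrying its own mouse number. The authors deposited raw counts per gene, made with TPMCalculator per the labels. Per the submitters' processing notes the tools included STAR 2.5.4a for which no role is stated, Trimmomatic 0.36 beside Trim Galore, and R 3.5.1 with DESeq2 1.22.2, and the build was mm9. Which gene annotation and strand setting the authors used is not stated.

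Counts were tested with edgeR 4.0.16 (R 4.3.3): genes kept by filterByExpr with a minimum count of 10 and a minimum total of 15, TMM factors, the quasi-likelihood test on tissue type, and Benjamini-Hochberg adjustment over 18027 genes. An adjusted p under 0.05 was called. The common coefficient of biological variation was 0.433. CPM used TMM-scaled library sizes. The code was tested on simulated data. Alternatives were other scalings and filters, DESeq2 1.42.0, limma voom (limma 3.58.1), removal of RNAs without a poly(A) tail and of histone RNAs, and leaving out each library. Exon lengths and overlaps came from GENCODE M21 on GRCm38.

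The members, classes, lists and tests were chosen with earlier results of these data known. Named were all 45 members, up to 4 genes higher and 4 lower per other list by smallest p, both genes of each reported pair, and Myc, Rb1 and Trp53. Cofactors of Rest that did not pass were named in addition, after their values were seen. Of the pairs, 1 is not reported here. Depth per library ran from 54735438 to 99122494 counts, so genes under about 10 counts were imprecise, and intervals cover counting error only.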

Additional observations from a re-analysis of the deposited data

Results flagged for a closer look

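In 5 of the 45 genes 1 tumor stood apart. Its gap to the nearest neighbor was above Dixon's critical share of the whole range of the 4 tumors in CPM. Chance passes this limit in about 1 of 20 groups if values are normally distributed, which CPM need not be. The share of all tested genes past the limit is not known, so these 5 genes may not exceed it. Tumor 4 was above the other tumors for Stx3 (gap 0.909 of the range) and for Stxbp2 (0.846). Tumor 4 was below them for Sv2a (0.851) and for Vamp2 (0.929), although Vamp2 differed by only 1.18-fold between its highest and lowest tumor. Tumor 5 was above the others for Sv2b (0.864). The 4 genes in which tumor 4 stood apart were 2 SNARE genes, a Munc18 gene and an SV2 gene.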

How the results depend on the processing

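Of the 37 genes that passed, 29 passed under every alternative, and Syt13 passed under every one in which it was tested, since it was removed where all libraries of either tissue had to reach 1 CPM. A further 5 were lost only when a normal library was left out. Vamp3, not called, changed sign with upper quartile factors (0.0338) and without tumor 6 (0.0444), with a lowest value of -0.19 without tumor 3. Cadps2, not called, changed sign with limma voom (-0.79), and without single libraries ranged from -0.61 (tumor 4) to 0.51 (tumor 6). The 16 vesicle endocytosis genes called became 7 to 15 without 1 library, and the 4 exocyst genes 2 to 5. Upper quartile factors moved the median log2 fold change of all genes to 0.14 and DESeq2 to 0.20, from 0.02. That filter left 42 of the 45 for testing. No paired analysis was possible because tumor and normal samples have no number in common.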
